A study of Mus musculus with 8 samples.

Results

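Snord93 and Mir3096 are a pair of near-identical small RNA genes on mouse chromosome 5, both listed in the deposited table with the Gene type snoRNA. They were taken by name, 2 of the 54531 features in the table, and the other 1505 features of Gene type snoRNA served as the background. The pair had been chosen by its genotype difference in the authors' own comparison, so the genotype difference is not a finding here, and its values are not given. Small RNA was sequenced in 4 *Rnaseh1* knockout and 4 wild type heart libraries, all of C57BL/6 mice aged 24 weeks. In the knockouts, Ckmm-cre, a Cre transgene driven by the promoter of muscle creatine kinase, removed the floxed exon 2 of *Rnaseh1*, the gene for RNase H1, an enzyme that degrades RNA paired with DNA. This promoter is active in heart and skeletal muscle, so the deletion is not aimed at the other cell types of the heart. The labels give the controls as RNase H1+/+, whereas the study's text describes floxed animals without Cre. The labels also give heart tissue as the source, and the study's methods give isolated heart mitochondria for these libraries.

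One value per gene could be used, the authors' mean over all libraries of both genotypes, in read counts divided by each library's size factor. It carries no SD, and the knockout and wild type hearts cannot be separated in it. Columns with values per library were not used, because their names match no sample's label, so no level per genotype, spread or test of genotype is given for either gene. The levels below therefore describe the 8 libraries together, and the order of 2 neighbouring features could not be set against replicate error. If the RNA came from isolated mitochondria, as the study's methods state, levels, ranks and shares need not be those of whole heart.

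Box C/D snoRNAs are small nucleolar RNAs that guide the 2′-O-methylation of other RNAs, mostly ribosomal RNA. They are bound by a core of fibrillarin, NOP56, NOP58 and SNU13, and are named for short sequence boxes: box C near the 5′ end, box D near the 3′ end, and less conserved internal copies of both. The guide lies just upstream of box D or of the internal box D′ and pairs with the target. Most vertebrate snoRNAs lie in introns of host genes and are released from the spliced-out intron, and the ends of a box C/D snoRNA often pair in a short stem. Human SNORD93 is listed as a guide for 18S rRNA. Some snoRNAs are also cut into shorter fragments, and a few small RNAs that were first named as miRNAs match snoRNA sequence.

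Snord93 (ENSMUSG00000095205) lay on the plus strand at chr5:23852210-23852280 of GRCm38, and Mir3096 (ENSMUSG00000096832) lay on the minus strand at chr5:23710991-23711061. Both genes were 71 bases long, and GENCODE M21 gave the same start and end for each as the deposited table. Their annotated sequences are shown because they carry the main feature of the pair: how little separates the genes. They are written 5′ to 3′ on the sense strand of each gene, as in the GENCODE M21 transcripts, with capitals for each match to the box D letters CTGA and for the single base that differs.
Snord93: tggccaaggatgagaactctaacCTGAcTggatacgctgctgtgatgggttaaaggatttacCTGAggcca
Mir3096: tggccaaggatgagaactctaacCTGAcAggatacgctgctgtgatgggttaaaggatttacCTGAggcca

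In a global alignment, 70 of 71 bases were identical (98.6%), with no gap. The one difference was T29A, counted from 1 at the 5′ end of each gene and written with the Snord93 base first. It left 28 identical bases before it and 42 after it. On the chromosome it stood at base 23852238 in Snord93 and at base 23711033 in Mir3096.

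The box letters fell at the same places in both genes. CTGA was found at bases 24 to 27 and again at bases 63 to 66, 5 bases from the 3′ end, and the differing base stood 2 bases after the end of the first match. All box letters were searched for on the sense strand only. Of the 1507 snoRNA features, 79.5% held CTGA at least 1 time and 42.9% held it 2 or more times, so the letters alone do not set the pair apart. The 12 bases just upstream of the first match, gagaactctaac (bases 12 to 23), and those just upstream of the second, taaaggatttac (bases 51 to 62), were the same in both genes. A box C/D guide would lie within such stretches, and the T29A difference fell in neither. Their length of 12 bases was fixed without locating box C. The first stretch begins with the last bases of aggatga, a near match to the box C letters described below.

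The box C letters NTGATGA, with N for any base, were found in neither gene, against 25.9% of all snoRNA features and 58.1% of the 253 with an authors' mean above 0. A run that differs from NTGATGA at 1 letter, aggatga, stood near the 5′ end of both genes, before the first CTGA. This run was picked by reading the sequences, and its share among snoRNA features was not counted. The shorter TGATG, which is part of NTGATGA and was chosen after the sequences had been read, occurred 1 time in each gene, at base 43. That place lies after the first CTGA, within gtgatgg, a run that also differs from NTGATGA at 1 letter. TGATG was held by 35.9% of all snoRNA features and by 72.7% of those with a mean above 0. The first 5 and the last 5 bases of each gene were reverse complements, and 2.85% of all snoRNA features had a run of paired end bases at least that long.

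RefSeq lists Snord93, with the older names Gm22397 and MBII-336, as a shorter gene of 45 bases on the same strand, chr5:23852233-23852277. That interval covers bases 24 to 68 of the sequence printed above, so it begins at the first CTGA, and holds both CTGA matches and the differing base. A search of all 141767 transcripts of GENCODE M21, on both strands, found a copy of either sequence at 90% identity or more in 2 genes, Snord93 and Mir3096 themselves. Allowing 20 edits found no further gene.

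Since the sequences differ at 1 base, a read that lies wholly within the gene can be assigned only if it covers that base. Intron sequence beyond the gene ends was not compared, so reads that reach past an end are left out here. Of the 42 windows of 30 bases that fit in the gene, 13 (31.0%) read the same in Snord93 and Mir3096, and 29 covered the difference. For shorter windows of 20 bases, 32 of 52 (61.5%) were the same, and for windows of 50 bases 0 of 22 were. From 43 bases on, every window in the gene covered the difference. A read that covers it is told apart by 1 base, so a sequencing error there can move it to the other gene. Bowtie2, used by the authors with default settings, reports 1 alignment per read and picks at random among equally good ones. The lengths and positions of the reads were not analysed here, and the part of reads that fit both genes in either value was not tested. Counting by strand gives no further help, because reads of both genes are sense to their own gene.

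**Figure D1:**
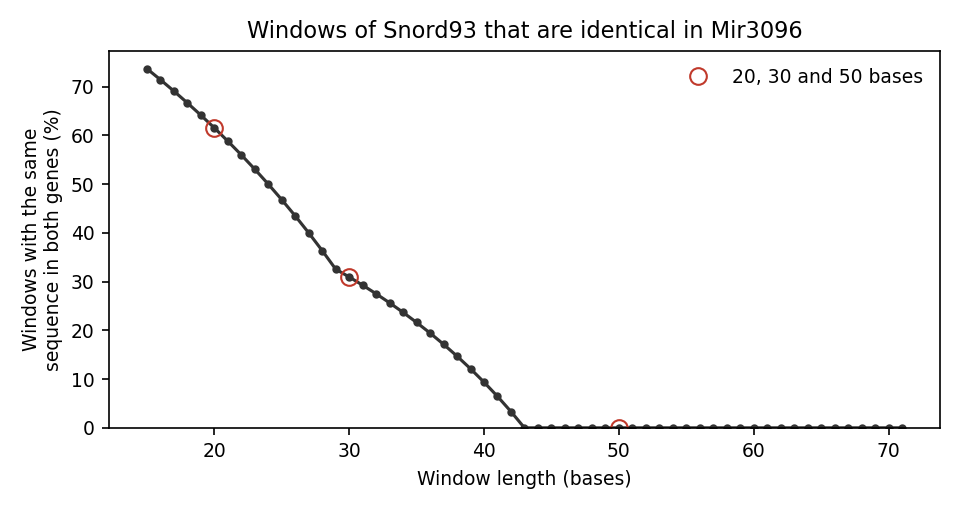
Share of windows with the same sequence in Snord93 and Mir3096 (y axis, percent) against window length in bases (x axis). Each point is 1 window length from 15 to 71 bases, and open circles mark 20, 30 and 50 bases, at 61.5%, 31.0% and 0%. The share falls to 0 at 43 bases.

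Snord93 had an authors' mean of 2068 normalised counts, rank 22 of the 253 snoRNA features with a mean above 0. Mir3096 had an authors' mean of 830 normalised counts, rank 30. The other 1254 snoRNA features were listed at 0, and 74 had a mean of at least 10. Both genes were thus in the upper part of the detected snoRNAs, whose median was 1.02. Per base of gene length, the levels were 29.1 for Snord93 and 11.7 for Mir3096, against a median of 0.00845 over the detected snoRNA features. Among all features of the table, Snord93 ranked 36 and Mir3096 ranked 56 by authors' mean.

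As the genes have the same length, their levels can be set side by side directly: the authors' mean of Mir3096 was 0.401 times that of Snord93. Of the 2897 normalised counts of the pair, 71.4% were listed under Snord93 and 28.6% under Mir3096. Summed as 1 feature, the pair would rank 19 among snoRNA features. Its sum does not depend on how reads that fit both genes were placed between them, whereas the ratio would if such reads occurred.

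**Figure D2:**
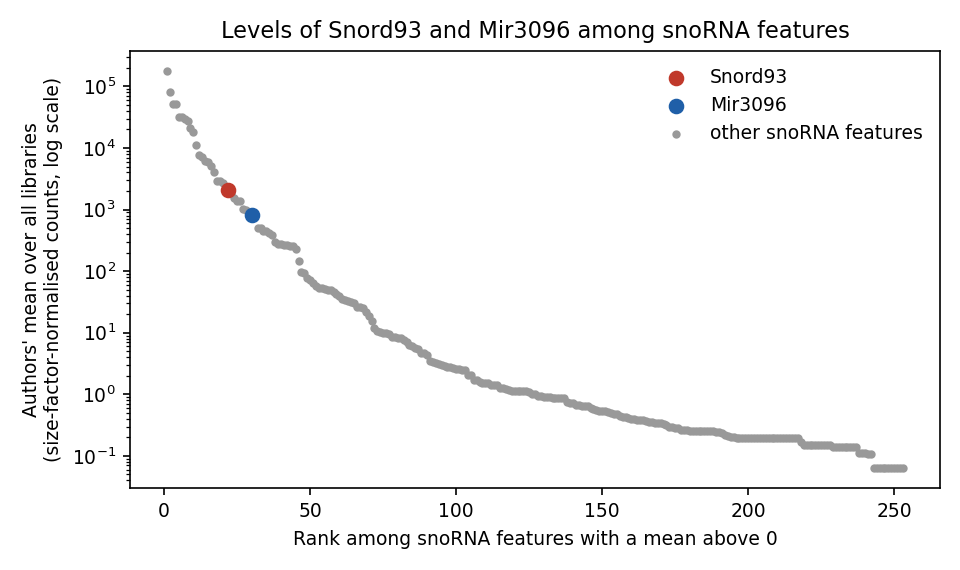
Authors' mean over all 8 libraries (y axis, size-factor-normalised counts, log scale) of the 253 snoRNA features with a mean above 0, in order of rank (x axis). Each point is 1 feature; Snord93 stands at rank 22 with 2068 and Mir3096 at rank 30 with 830. No error bars are drawn because the deposited mean has none.

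Around Snord93 the next higher snoRNA features were Snord42a, Snord82 and Snord91a, with authors' means of 2331, 2676 and 2874. The next lower ones were Gm23969 with 1825, Snord34 with 1560 and Gm22858 with 1386. Per base of gene length, Snord93 kept rank 22, between Snord91a with 30.9 and Gm23969 with 24.7. Snord34, Snord42a and Snord82 carry box C/D names, like Snord93 itself, and Gm-numbered names are given to predicted genes.

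Around Mir3096 the next higher features were Snord42b, Snord87 and Snord37, with authors' means of 886, 980 and 1008. The next lower ones were Snord65 with 828, Snord35a with 500 and Snord58b with 494. Mir3096 and Snord65 differed by under 2 normalised counts, so their order has no weight without replicate error. Per base, Mir3096 stood at rank 29 with 11.7, Snord65 at rank 30 with 11.5 and Snord87 at rank 31 with 11.3.

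The snoRNA total was dominated by far more abundant genes. The 5 highest features, Snord55, Snord49a, Gm23344, Gm26202 and Snord110, held 66.0% of the summed authors' mean of all snoRNA features, with Snord55 alone at 180452. Snord93 made up 0.343% of this sum, Mir3096 0.138% and the pair 0.480%. Features of Gene type snoRNA held 73.3% of the sum over the whole table, of which the pair was 0.352%.

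By name, 98 of the snoRNA features begin with Snord, the prefix of box C/D snoRNAs, and 57 of these had a mean above 0. Snord93 ranked 16 among those 57, whose median was 257. Names with Snora, the prefix of the other large snoRNA class (box H/ACA), had 18 of 42 above 0 and a highest mean of 18.7, below both members of the pair. That highest feature, Snora34, is 138 bases long against 71 for each member, and whether length affects the counts was not tested.

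Mir3096 was 1 of 5 features with a Mir name among the snoRNA features. Only 1 of the other 4 was above 0, Mir3068 with 1.22, so the sum of 831 for the 5 was almost wholly that of Mir3096. Of the 2207 features that the table types as miRNA, 98 had a mean above 0 and 2 were above Mir3096: Snord43 with 40246, a gene with a box C/D name, and Mir6236 with 882. Per base of gene length, 2 miRNA-typed features were again above Mir3096 with its 11.7, Snord43 with 373 and Gm23935 with 12.6, whereas Mir6236 had 7.17. The table's type and the gene's name therefore do not match in either direction, and the level of Mir3096 is reported under the type snoRNA.

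Near-identical genes were not rare among snoRNA features: 433 of the 1507 (28.7%) had at least 1 partner at 90% identity or more, as had 139 of the 253 above 0 and 16 of the 74 with a mean of at least 10. Snord93 and Mir3096 had 1 such partner each, the other member. In 14 pairs both partners had a mean of at least 1, and this pair had the highest levels of them. The pair next in level, Gm24091 and Gm23711, had identical sequences and means of 50.03 and 45.82, a ratio of 1.09. Gm22192 and Gm25632, also identical, had means of 31.6 and 26.1, a ratio of 1.21, and Gm22192 and Gm24920, which differ by 1 edit over 85 bases, had means of 31.6 and 21.8, a ratio of 1.45. The ratio of Snord93 to Mir3096 was 2.49, wider than in these 3 pairs. Reads within identical genes cannot be told apart, so the ratios of the identical pairs do not measure a difference in level. Gm25632 and Gm24920, which also differ by 1 edit, had a ratio of 1.19. Among pairs with more edits the ratios were both wider and narrower. Snora17 and Gm25617 had a ratio of 12.5 at 11 edits, with a mean of only 1.25 for Gm25617. Gm25053 and Gm25617 had 4.56 at 5 edits, and Snora17 and Gm25053 had 2.74 at 12 edits. Narrower ratios were 2.24 for Gm24233 and Gm22786 at 3 edits and 2.20 for Snora73b and Snora73a at 7 edits. Gm25788 and Gm22154 had 1.10 at 4 edits. The pairs among Gm23446, Gm26032 and Gm23767, at 2 edits each, had ratios from 1.06 to 1.12. These ratios are descriptions of pooled means and were not tested.

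**Figure D3:**
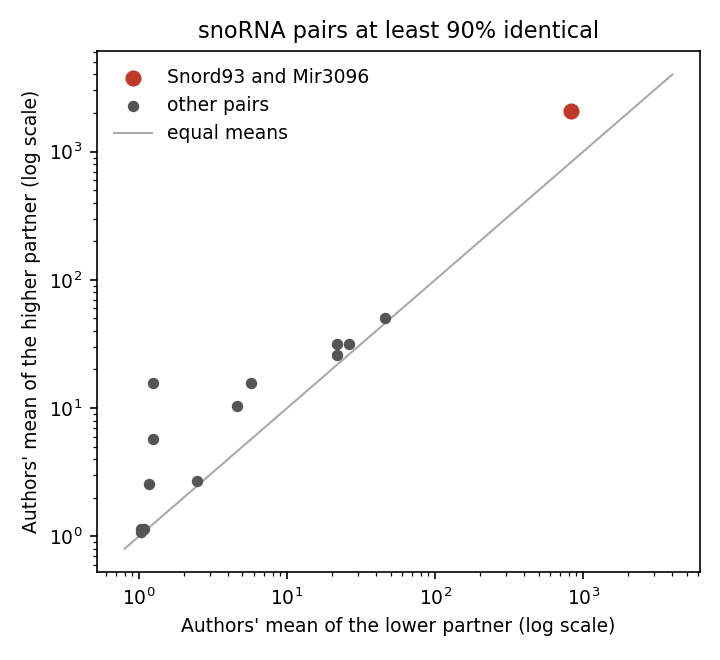
Authors' mean of the higher partner (y axis, log scale) against that of the lower partner (x axis, log scale) for the 14 pairs of snoRNA features at 90% identity or more with both means at least 1. The grey line marks equal means; Snord93 and Mir3096, at 2068 and 830, stand at the upper right above the line, and the pair of Gm24091 and Gm23711 lies close to it.

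Each gene lay in an intron of a non-coding host gene, on the host's strand. Snord93 was in 2700038G22Rik, a lincRNA at chr5:23850597-23855038 on the plus strand, and Mir3096 was in AI506816, a processed transcript at chr5:23698296-23712667 on the minus strand. No annotated exon of either host overlapped the gene in it. The intron that holds the gene was present in both annotated transcripts of 2700038G22Rik and in 3 of the 5 of AI506816.

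The layout of the hosts was alike as well. In the transcripts compared, 2700038G22Rik-201 and AI506816-205, exons 1, 2 and 3 were 25, 35 and 43 bases long in both. Exons 1 and 2 were identical in sequence, and exon 3 had 41 of 43 bases the same. Snord93 and Mir3096 both lay in intron 2, in each case 54 bases after exon 2. Beyond the gene the introns differed in length, with 437 bases to exon 3 in 2700038G22Rik and 582 bases in AI506816. Snord93 began 1613 bases and Mir3096 began 1605 bases after the first base of the host transcript.

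**Figure D4:**
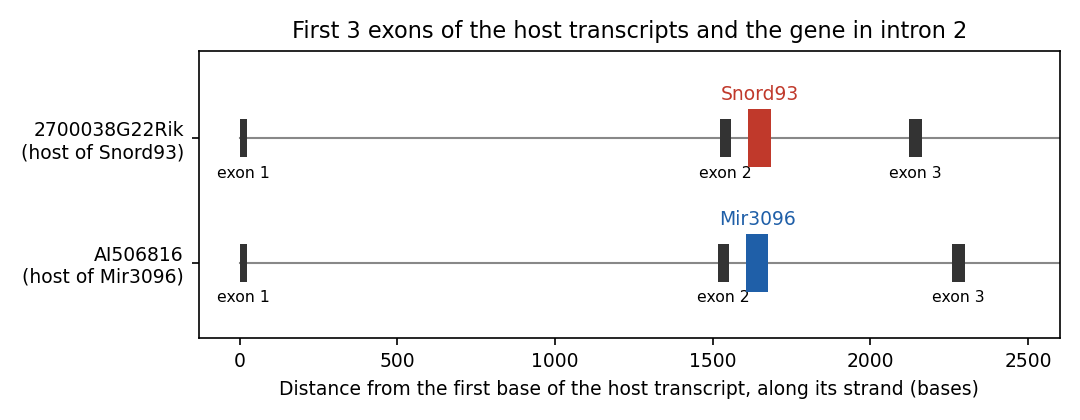
The first 3 exons (black boxes) of the host transcripts 2700038G22Rik-201 and AI506816-205, to scale, by distance from the first base of each transcript along its own strand (x axis, bases). Coloured boxes are Snord93 and Mir3096, which both start 54 bases after exon 2; exon 3 comes 437 bases after Snord93 and 582 bases after Mir3096.

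The promoters of the hosts shared a longer stretch, printed because the likeness of the loci reaches beyond the small RNA genes. In the RefSeq windows of GRCm38.p6, from 250 bases before to 50 bases after each gene's start, the 2 promoters were 79.7% identical over 305 aligned columns. The longest exact run was 129 bases. It lay at chr5:23850467-23850595 on the plus strand for 2700038G22Rik and at chr5:23712668-23712796 on the minus strand for AI506816, and is written here 5′ to 3′ on the host's strand, with no part in capitals.
Shared promoter run: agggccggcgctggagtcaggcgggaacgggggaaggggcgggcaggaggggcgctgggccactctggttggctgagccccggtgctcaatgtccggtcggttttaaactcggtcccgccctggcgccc

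The run ended 2 bases before the start of 2700038G22Rik and 1 base before that of AI506816. Of the 32851 promoters in the RefSeq table, 2 held it, those of the pair's hosts.

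The hosts themselves gave almost no reads in these libraries. 2700038G22Rik was listed at 0 and AI506816 had an authors' mean of 0.713, against 2068 for Snord93 and 830 for Mir3096. The libraries were made for small RNA, so these values say little of the level of the spliced host RNAs.

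The genes lay 141148 bases apart and point away from each other. The stretch between them held 3 protein-coding genes, Pus7, which encodes a pseudouridine synthase, Rint1 and Tomm7, a subunit of the mitochondrial outer membrane import complex, with authors' means of 0.103, 0.563 and 0.769. No other snoRNA feature lay within 200 kb of either gene.

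Genes for the proteins that bind box C/D snoRNAs or assemble them were given as context. Of 12 listed, 11 were in the table, 10 had an authors' mean above 0 and 1 had a mean of at least 1. Fbl, which encodes the methyltransferase fibrillarin, had a mean of 0.663, Nop58, a core protein, 0.767, and Snu13, which binds the box C/D motif, 0.127. The exception was Nop56, another core protein, with 105, whose interval also holds 5 snoRNA features, Snord110 and Snord57 among them. The interval of Nop58 holds 4 snoRNA features as well, Snord11 and Snord70 among them, beside its mean of 0.767. Values of this kind from a small RNA library give no measure of the proteins or of their full mRNAs.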

How the data were processed

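Small RNA libraries from 4 *Rnaseh1* knockout and 4 wild type mouse hearts were grouped by their labels. Per the study's methods and processing notes, reads were mapped by the authors with Bowtie2 2.3.4.1 (GRCm38, mm10; single-end), counted per Ensembl gene with featureCounts 1.6.3 on 1 strand, and analysed with DESeq2 1.18.1 in R 3.5.1. The value used is the deposited signal baseMean, in which the authors divided counts by size factors and averaged over all libraries. The deposited columns of the authors' comparison (log2 fold change, its error, statistic and p-values) were not used. Another 8 columns hold values per library under names that match no label. They were not used in any step, so neither totals per library, and with them the depth behind each value, nor a spread over libraries are given. No genotype test was made, although limma had been planned if the columns could be matched.

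The members and lists were chosen with earlier results of these data known. Named genes are both members, the 3 snoRNA features next above and below each, the 5 highest, copies at 90% identity, hosts and snoRNAs within 200 kb, and a list of box C/D proteins; the near-identical pairs, genes between the members and features set beside Mir3096 were added after their values were seen. Sequences are from GENCODE M21 and RefSeq GRCm38.p6. Ranks, shares, global alignments, edit distances and windows were computed in Python with pandas, Biopython 1.88 and edlib. Alignment scores were match 1, mismatch -1, gap opening -5 and extension -1, with -1 per base for gaps at the ends. The functions for near-identical pairs, windows, paired end bases and box letters had first been tested on made-up sequences. Ranks, shares and global alignments had no such test. All 1507 snoRNA features matched a transcript by gene ID.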

Additional observations from a re-analysis of the deposited data

How the results depend on the processing

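No paired analysis was possible because the columns per library could not be assigned to labelled replicates. For the same reason the planned fits of genotype (limma, the replicate block, other pseudocounts, no filter, rescaling, the summed pair and leaving out each replicate) were not run. The share of the pair was 0.480% of the snoRNA sum and 0.352% of the sum over all features, by the wider denominator. Windows identical in both genes were 31.0% at 30 bases, 61.5% at 20 and 0% at 50, by construction of the window. The ratio of 0.401 was the same per base by construction, since the genes have the same length. Likewise, the identity of 98.6% had to be the same without gaps, since the alignment held none. With scaRNA features included, Snord93 ranked 23 and Mir3096 ranked 31, and a minimum mean of 10 left ranks 22 and 30 by construction, since it removes only lower features. Summed as 1 feature, the pair ranked 19. Per base, an alternative chosen after seeing the data, Snord93 kept rank 22 and Mir3096 ranked 29. Without the columns per library, no spread or depth is given, so the precision of these values is not known here.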
